A study of Mus musculus with 24 samples.

Results

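The genes described here are 31 enzymes, regulators and carriers of cholesterol and fatty acid synthesis, chosen by name from the 25361 genes of a TPM table of E12.5 mouse liver. TPM are reads per transcript length scaled to a common library total, so they can be set side by side between genes. All 31 were found, and all 31 passed the filter of at least 1 TPM in at least 3 libraries that every gene had to pass to be tested. They comprise 7 enzymes of the mevalonate pathway, 11 enzymes from squalene to cholesterol, 4 genes of regulation and sterol transport, 3 enzymes of fatty acid synthesis, 4 desaturases and 2 elongases. RNA was sequenced from 24 libraries, 12 of CD146+ cells, called LSECs (liver sinusoidal endothelial cells), and 12 of the cells that CD146 beads left behind, called non-EC cells. Each fraction held 3 libraries of each of 4 genotypes. Controls were littermates without Cre. *Chd4-ECko* embryos had floxed alleles of *Chd4*, a chromatin remodeler of the NuRD complex, deleted by VE-cadherin-Cre and, by the crosses in the methods, carried 1 floxed *Brg1* allele too. *Brg1-ECko* embryos had *Brg1* (*Smarca4*), the ATPase of SWI/SNF complexes, deleted and carried 1 floxed *Chd4* allele, and *Brg1/Chd4-ECdko* embryos, here called double mutants, had both deleted. This Cre acts in endothelial cells and also in some blood cells. Livers of all groups were digested with inhibitors of transcription and translation.

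Cholesterol is built from acetyl-CoA by the mevalonate pathway, which yields farnesyl diphosphate, and by a second series of enzymes that joins farnesyl units to squalene, closes the sterol rings and trims lanosterol to cholesterol. The SREBP transcription factors, encoded by *Srebf1* and *Srebf2*, turn on these enzymes and those of fatty acid synthesis when membrane sterol is low, and INSIG proteins hold SREBPs in the endoplasmic reticulum when sterol is plentiful. Fatty acid synthesis uses citrate-derived acetyl-CoA, and its product palmitate is then elongated and desaturated. In the fetal liver, hepatoblasts, the precursors of hepatocytes, make lipoproteins and express these enzymes strongly, while blood cell precursors and endothelial cells use the same pathways for their membranes.

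Promoter sequence was read for 24 of the 31 genes from RefSeq (build GRCm38.p6), in 29 windows of 250 bases before to 50 bases after a gene start. *Fdps*, *Fdft1*, *Sqle*, *Stard4*, *Scd1*, *Scd2* and *Fads1* had no entry. The 150 bases upstream of *Mvk*, *Hmgcs1* and *Insig1* are shown because *Mvk* had the largest rise of the 31 genes in *Brg1-ECko* non-EC cells, *Hmgcs1* alone held the sterol regulatory element searched and varied between replicates, and *Insig1* is the feedback gene of the pathway. Matched exactly to GRCm39, the build of the deposited data, they lie at chr5:114582117-114582266, chr13:120151737-120151886 and chr5:28276165-28276314, all on the plus strand and upstream of the first annotated base of the gene. Capitals mark the motifs found on either strand, namely the sterol regulatory element TCACNCCAC bound by SREBPs, CCAAT bound by NF-Y, GGGCGG bound by Sp1 and the E-box CACGTG. On the opposite strand CCAAT reads ATTGG and GGGCGG reads CCGCCC.
Mvk: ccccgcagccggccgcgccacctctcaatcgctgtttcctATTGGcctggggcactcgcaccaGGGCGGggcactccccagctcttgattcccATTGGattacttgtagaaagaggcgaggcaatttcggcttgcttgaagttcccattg
Hmgcs1: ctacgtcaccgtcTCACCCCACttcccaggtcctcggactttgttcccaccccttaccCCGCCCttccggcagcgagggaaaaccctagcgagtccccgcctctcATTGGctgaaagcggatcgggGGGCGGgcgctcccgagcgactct
Insig1: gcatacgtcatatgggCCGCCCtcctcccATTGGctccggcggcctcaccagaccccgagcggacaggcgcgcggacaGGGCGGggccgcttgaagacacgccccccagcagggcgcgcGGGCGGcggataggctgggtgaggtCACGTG
Of the 29 windows, CCAAT was present in 21 (72.4%) against 37.4% of all 32851 windows, and GGGCGG in 21 (72.4%) against 35.7%. Both were present in 17 (58.6%) against 12.8% of all. CACGTG was present in 5 (17.2%) against 7.15%, and TCACNCCAC in 1 (3.45%) against 1.24%. These are matches of letters and were not tested as binding sites.

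Control LSECs carried the markers of their label, though not these alone. All 10 endothelial markers, among them *Cdh5* and *Stab2*, were higher in control LSECs than in control non-EC cells. All 7 mesenchymal markers were higher there too, with a median log2 difference of 4.29. In control LSECs endothelial markers summed to 1546 to 2051 TPM, mesenchymal markers to 1309 to 1827 TPM and hepatoblast markers to 3504 to 7154 TPM. LSEC values are thus those of a mixed fraction. Whole-gene TPM of the deleted genes overlapped in part between genotypes: *Chd4* was at 246 to 285 TPM in control LSECs and 168 to 252 TPM in *Chd4-ECko* LSECs, and *Smarca4* at 134 to 161 TPM in control and 111 to 157 TPM in *Brg1-ECko* LSECs. These values do not isolate the floxed exons, so they check the labels only weakly. LSEC libraries had 13.9% to 31.5% of their TPM in mitochondrial genes and non-EC libraries 2.33% to 7.69%. *Brg1-ECko* LSEC replicate 1 stood apart. Its 10 hepatoblast markers, such as *Afp* and *Alb*, summed to 28591 TPM against 3504 to 8151 TPM in the other 11 LSEC libraries, so results on *Brg1-ECko* LSECs are given with and without it. In bulk RNA, fewer cells of a type and less RNA per cell cannot be told apart.

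In control embryos, lipid synthesis genes were mostly lower in LSECs than in non-EC cells. By limma on log2(TPM + 1), with p-values adjusted by the Benjamini-Hochberg method over all genes, 25 of the 31 were lower and 1 was higher in LSECs, where 35.8% of all 13775 genes tested were lower and 31.3% higher. The median log2 difference was -0.76 over the 31 genes and -0.09 over all genes. Among the 11 enzymes from squalene to cholesterol all 11 were lower, among the 7 of the mevalonate pathway 5, and all 3 of fatty acid synthesis. No library of LSECs reached the lowest non-EC library for 28 of the 31 genes (40.2% of all genes). The fractions were compared as unpaired libraries.

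The 8 largest differences were spread over both pathways. *Scd1*, which desaturates stearoyl-CoA, had 17.9, 14.9 and 14.4 TPM in LSECs and 62.0, 47.5 and 62.7 TPM in non-EC cells, a log2 difference of -1.80 ± 0.37 (adjusted p = 0.000253). *Lss*, lanosterol synthase, which closes the sterol rings, had 13.7, 14.9 and 11.5 TPM in LSECs and 43.0, 39.3 and 45.1 TPM in non-EC cells, a log2 difference of -1.60 ± 0.32 (adjusted p = 0.000177). *Dhcr7*, the reductase of the last step to cholesterol, had 13.1, 13.7 and 8.08 TPM in LSECs and 29.7, 23.2 and 31.5 TPM in non-EC cells, a log2 difference of -1.23 ± 0.29 (adjusted p = 0.000753). For these 3 genes the fractions were widely separated. *Tm7sf2*, a sterol reductase, had 5.10, 4.91 and 5.25 TPM in LSECs and 13.5, 12.5 and 13.5 TPM in non-EC cells, a log2 difference of -1.22 ± 0.28 (adjusted p = 0.000672). *Acaca*, acetyl-CoA carboxylase, which commits acetyl-CoA to fatty acids, had 13.6, 10.3 and 12.4 TPM in LSECs and 30.7, 24.8 and 32.4 TPM in non-EC cells, a log2 difference of -1.21 ± 0.25 (adjusted p = 0.000211). *Srebf1*, the SREBP gene linked mainly to fatty acid synthesis, had 16.1, 15.8 and 12.0 TPM in LSECs and 36.0, 32.0 and 34.1 TPM in non-EC cells, a log2 difference of -1.18 ± 0.18 (adjusted p = 7.1e-06). These too did not overlap. *Ebp*, a sterol isomerase, had 29.0, 34.7 and 31.8 TPM in LSECs and 70.4, 70.3 and 72.6 TPM in non-EC cells, a log2 difference of -1.14 ± 0.17 (adjusted p = 5.9e-06). *Msmo1*, the sterol methyl oxidase, had 68.7, 66.6 and 53.5 TPM in LSECs and 141, 125 and 140.4 TPM in non-EC cells, a log2 difference of -1.10 ± 0.26 (adjusted p = 0.00103). *Elovl5*, which elongates polyunsaturated fatty acids, had 86.6, 81.0 and 81.3 TPM in LSECs and 61.2, 51.8 and 69.0 TPM in non-EC cells, a log2 difference of 0.45 ± 0.13 (adjusted p = 0.00440). *Elovl5* was thus the exception, higher in every LSEC library than in any non-EC library. The 5 genes without a call were *Mvk* (-0.082), *Fads1* (-0.24), *Stard4* (-0.39), *Elovl6* (-0.64) and *Hmgcs1* (-0.71, all log2 differences).

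The order of levels was similar at its ends. In control non-EC cells *Scd2* was highest at 347 ± 36.3 TPM (mean ± SD, n = 3), followed by *Hmgcs1* at 270.5 ± 33.1 TPM and *Fdps* at 260.0 ± 6.50 TPM, and the last pair overlapped. *Tm7sf2* was lowest at 13.2 ± 0.54 TPM, and it overlapped with the next, *Hsd17b7*, at 14.3 ± 1.83 TPM. In control LSECs *Scd2* was at 211 ± 23.4 TPM, *Hmgcs1* at 165 ± 19.3 TPM and *Fdps* at 127 ± 6.22 TPM, none of which overlapped with the next. *Hsd17b7* at 7.99 ± 0.045 TPM and *Tm7sf2* at 5.09 ± 0.17 TPM were lowest and did not overlap. Most neighbours in the middle of both orders overlapped. The plot of control levels shows each gene in both fractions.

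**Figure D1:**
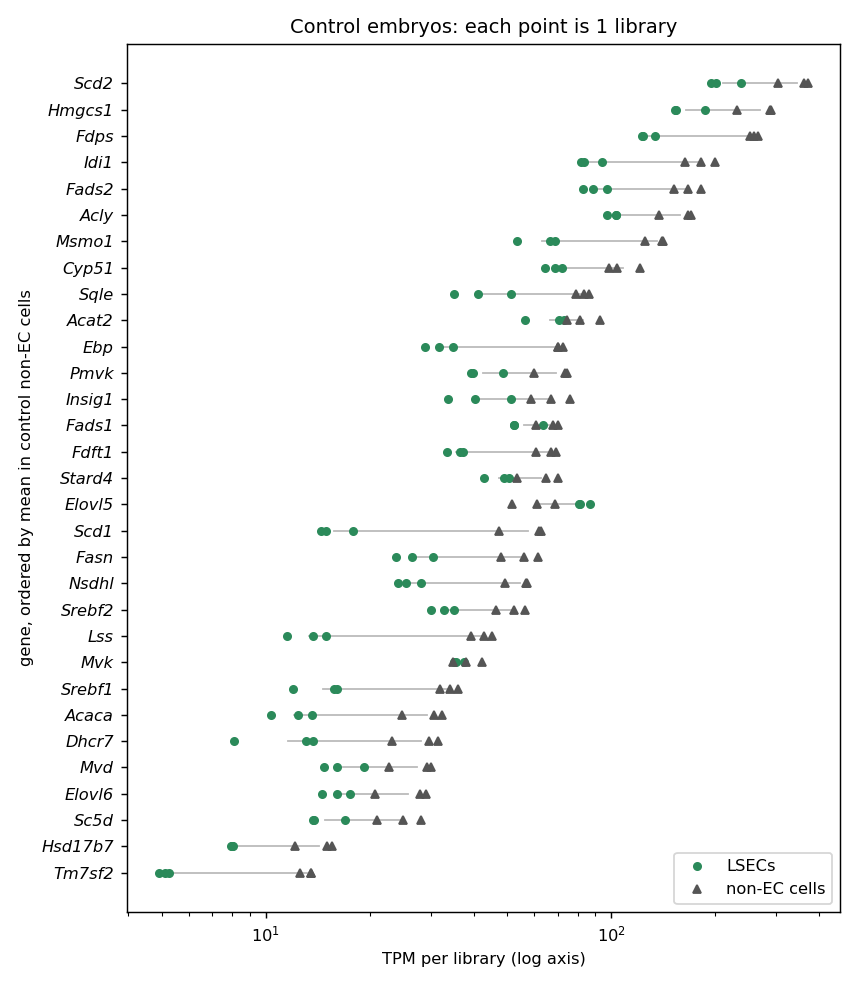
TPM of the 31 genes in control embryos on a log axis, with genes ordered by their mean in non-EC cells. Circles are the 3 LSEC libraries, triangles the 3 non-EC libraries and grey lines join the means. The circles lie to the left of the triangles for 28 genes and to the right only for *Elovl5*.

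Non-EC cells of mutant livers had more lipid synthesis mRNA than those of control livers. In *Chd4-ECko* 19 of the 31 genes rose and none fell, where 6.17% of 12223 genes rose and 3.31% fell. In *Brg1-ECko* 20 rose and none fell, where 8.91% of all genes rose and 2.76% fell. In double mutants 5 rose and none fell, where 0.565% of all genes rose and 0.0164% fell. At an unadjusted p under 0.05, 22, 23 and 24 of the 31 were higher, against 15.2%, 17.5% and 10% of all genes. The median log2 difference of the 31 genes was 0.49, 0.55 and 0.54, against 0.01, 0.02 and 0.01 over all genes. All libraries of the mutant lay above all control libraries for 23 genes in *Chd4-ECko* (15.8% of all genes), 23 in *Brg1-ECko* (21.9%) and, for double mutants, 27 (16.0%). The summed hepatoblast markers also lay above control in all 9 mutant libraries. The 3 comparisons use the same 3 control libraries, so their likeness is not independent. Control replicate 2 had the lowest level of its group for 29 of the 31 genes, against 63.5% of all genes. Without it 11 genes were called in *Chd4-ECko*, 12 in *Brg1-ECko* and, for double mutants, 0, where 3.51%, 5.64% and 0% of all genes were called. Leaving out any other single library of the latter comparison left 0 or 1 call, so its 5 calls rest on having all 6 libraries. Without *Chd4-ECko* replicate 1, 20 genes were called higher in *Chd4-ECko* and 2 were called lower, *Idi1* at -1.37 and *Stard4* at -0.74, where 37.7% of all genes were called in either direction against 9.48% with it.

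**Figure D2:**
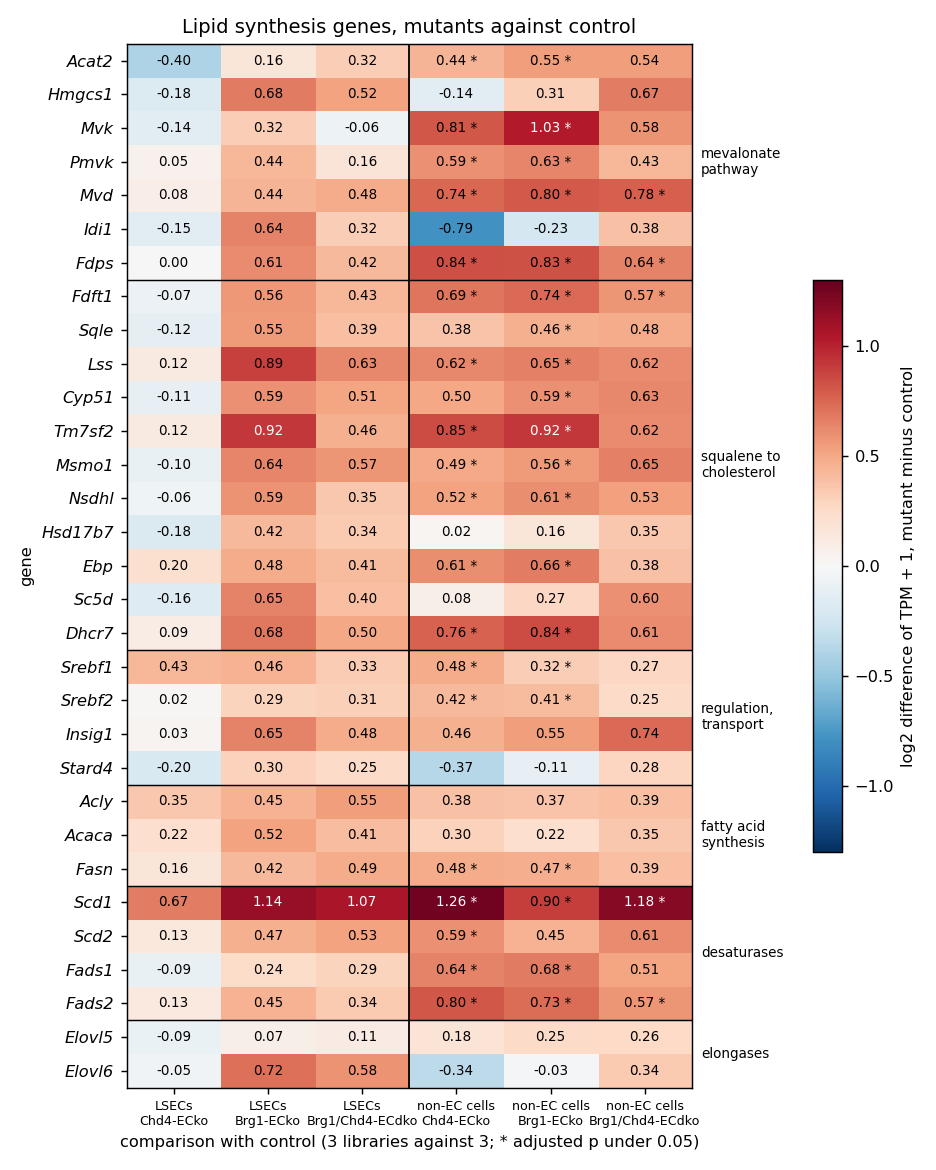
Log2 differences of TPM + 1 between each mutant and control, for the 31 genes in rows by role and the 6 comparisons in columns, with red for higher and blue for lower in the mutant. Asterisks mark an adjusted p under 0.05, of which there are 19, 20 and 5 in the non-EC columns and none in the LSEC columns.

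In the mevalonate pathway 5 of 7 enzymes rose in *Chd4-ECko*, the same number in *Brg1-ECko* and, for double mutants, 2. All differences below are on the log2(TPM + 1) scale with their standard error and limma's adjusted p. *Acat2*, which joins acetyl-CoA units at the start of the pathway, was measured at 81.5, 74.7 and 93.1 TPM in control, 124, 113 and 102 TPM in *Chd4-ECko*, 116, 135 and 114 TPM in *Brg1-ECko* and, in double mutants, 137, 112 and 116 TPM. *Acat2* exceeded its highest control value in every mutant library and rose by 0.44 ± 0.12 (adjusted p = 0.0437) in *Chd4-ECko* and by 0.55 ± 0.12 (adjusted p = 0.0135) in *Brg1-ECko*, and its difference of 0.54 ± 0.12 (adjusted p = 0.0632) in double mutants did not pass. *Mvk*, mevalonate kinase, stood at 38.1, 34.8 and 42.2 TPM in control, 66.7, 61.7 and 75.8 TPM in *Chd4-ECko*, 91.0, 75.5 and 71.6 TPM in *Brg1-ECko* and, in double mutants, 65.2, 53.9 and 54.8 TPM. *Mvk* exceeded its highest control value in every mutant library and rose by 0.81 ± 0.12 (adjusted p = 0.00665) in *Chd4-ECko* and by 1.03 ± 0.12 (adjusted p = 0.00128) in *Brg1-ECko*, and its difference of 0.58 ± 0.12 (adjusted p = 0.0589) in double mutants did not pass. *Pmvk*, phosphomevalonate kinase, which acts next, had 60.0, 73.8 and 74.7 TPM in control, 104, 98.6 and 111 TPM in *Chd4-ECko*, 110.2, 111 and 102 TPM in *Brg1-ECko* and, in double mutants, 98.1, 89.3 and 93.0 TPM. *Pmvk* exceeded its highest control value in every mutant library and rose by 0.59 ± 0.10 (adjusted p = 0.00802) in *Chd4-ECko* and by 0.63 ± 0.10 (adjusted p = 0.00275) in *Brg1-ECko*, and its difference of 0.43 ± 0.10 (adjusted p = 0.0670) in double mutants did not pass. *Mvd*, which decarboxylates the product to isopentenyl diphosphate, was measured at 29.2, 22.7 and 30.2 TPM in control, 44.0, 45.6 and 49.1 TPM in *Chd4-ECko*, 52.3, 46.5 and 45.4 TPM in *Brg1-ECko* and, in double mutants, 49.3, 52.9 and 40.6 TPM. *Mvd* exceeded its highest control value in every mutant library and rose by 0.74 ± 0.13 (adjusted p = 0.00886) in *Chd4-ECko*, by 0.80 ± 0.13 (adjusted p = 0.00342) in *Brg1-ECko* and by 0.78 ± 0.13 (adjusted p = 0.0348) with both deleted. *Fdps*, farnesyl diphosphate synthase, stood at 253, 260.2 and 266 TPM in control, 414, 458 and 534 TPM in *Chd4-ECko*, 517, 452 and 426 TPM in *Brg1-ECko* and, in double mutants, 443, 399 and 379 TPM. *Fdps* exceeded its highest control value in every mutant library and rose by 0.84 ± 0.11 (adjusted p = 0.00425) in *Chd4-ECko*, by 0.83 ± 0.11 (adjusted p = 0.00154) in *Brg1-ECko* and by 0.64 ± 0.11 (adjusted p = 0.0352) with both deleted. *Mvd* and *Fdps* were the enzymes of this pathway that passed in all 3 mutants. The other 2 enzymes of the pathway, *Hmgcs1* and *Idi1*, did not pass in any mutant and are described with the variable genes.

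From squalene to lanosterol and cholesterol, 7 of 11 enzymes rose in *Chd4-ECko*, 9 in *Brg1-ECko* and, for double mutants, 1. *Fdft1*, squalene synthase, was measured at 69.3, 60.7 and 67.2 TPM in control, 109, 101 and 109.9 TPM in *Chd4-ECko*, 120.4, 104 and 107 TPM in *Brg1-ECko* and, in double mutants, 107, 107 and 82.6 TPM. *Fdft1* exceeded its highest control value in every mutant library and rose by 0.69 ± 0.11 (adjusted p = 0.00734) in *Chd4-ECko*, by 0.74 ± 0.11 (adjusted p = 0.00243) in *Brg1-ECko* and by 0.57 ± 0.11 (adjusted p = 0.0476) with both deleted. *Sqle*, squalene epoxidase, stood at 86.5, 79.4 and 83.7 TPM in control, 119, 108 and 98.9 TPM in *Chd4-ECko*, 132, 108 and 106 TPM in *Brg1-ECko* and, in double mutants, 125, 119 and 106 TPM. *Sqle* exceeded its highest control value in every mutant library and rose by 0.46 ± 0.11 (adjusted p = 0.0185) in *Brg1-ECko*, and its difference of 0.38 ± 0.11 (adjusted p = 0.0506) in *Chd4-ECko* and of 0.48 ± 0.11 (adjusted p = 0.0645) in double mutants did not pass. *Lss*, lanosterol synthase, had 43.0, 39.3 and 45.1 TPM in control, 74.1, 61.3 and 62.9 TPM in *Chd4-ECko*, 79.3, 59.5 and 64.4 TPM in *Brg1-ECko* and, in double mutants, 75.5, 65.1 and 57.3 TPM. *Lss* exceeded its highest control value in every mutant library and rose by 0.62 ± 0.13 (adjusted p = 0.0195) in *Chd4-ECko* and by 0.65 ± 0.13 (adjusted p = 0.0102) in *Brg1-ECko*, and its difference of 0.62 ± 0.13 (adjusted p = 0.0597) in double mutants did not pass. *Cyp51*, which demethylates lanosterol, was measured at 104, 98.5 and 122 TPM in control, 188, 148 and 128 TPM in *Chd4-ECko*, 197, 136 and 161 TPM in *Brg1-ECko* and, in double mutants, 194, 154 and 155 TPM. *Cyp51* exceeded its highest control value in every mutant library and rose by 0.59 ± 0.17 (adjusted p = 0.0431) in *Brg1-ECko*, and its difference of 0.50 ± 0.17 (adjusted p = 0.0731) in *Chd4-ECko* and of 0.63 ± 0.17 (adjusted p = 0.116) in double mutants did not pass. *Sqle* and *Cyp51* passed in *Brg1-ECko* alone, although the difference between the mutants was not tested.

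Of the sterol-modifying enzymes that follow, 5 rose in both single mutants. *Tm7sf2*, a sterol reductase, stood at 13.5, 12.5 and 13.5 TPM in control, 21.4, 25.6 and 26.9 TPM in *Chd4-ECko*, 27.1, 21.6 and 29.3 TPM in *Brg1-ECko* and, in double mutants, 26.2, 17.5 and 19.3 TPM. *Tm7sf2* exceeded its highest control value in every mutant library and rose by 0.85 ± 0.16 (adjusted p = 0.0123) in *Chd4-ECko* and by 0.92 ± 0.16 (adjusted p = 0.00476) in *Brg1-ECko*, and its difference of 0.62 ± 0.16 (adjusted p = 0.104) in double mutants did not pass. *Msmo1*, the sterol methyl oxidase, had 141, 125 and 140.4 TPM in control, 226, 193 and 159 TPM in *Chd4-ECko*, 236, 181 and 186 TPM in *Brg1-ECko* and, in double mutants, 229, 219.7 and 192 TPM. *Msmo1* exceeded its highest control value in every mutant library and rose by 0.49 ± 0.14 (adjusted p = 0.0489) in *Chd4-ECko* and by 0.56 ± 0.14 (adjusted p = 0.0249) in *Brg1-ECko*, and its difference of 0.65 ± 0.14 (adjusted p = 0.0589) in double mutants did not pass. *Nsdhl*, a sterol dehydrogenase of the same demethylation, was measured at 56.8, 49.2 and 57.2 TPM in control, 80.0, 79.3 and 75.3 TPM in *Chd4-ECko*, 93.6, 76.8 and 80.4 TPM in *Brg1-ECko* and, in double mutants, 85.9, 82.0 and 70.1 TPM. *Nsdhl* exceeded its highest control value in every mutant library and rose by 0.52 ± 0.11 (adjusted p = 0.0163) in *Chd4-ECko* and by 0.61 ± 0.11 (adjusted p = 0.00463) in *Brg1-ECko*, and its difference of 0.53 ± 0.11 (adjusted p = 0.0512) in double mutants did not pass. *Ebp*, the sterol isomerase, stood at 70.4, 70.3 and 72.6 TPM in control, 90.8, 115 and 124 TPM in *Chd4-ECko*, 115, 112 and 113 TPM in *Brg1-ECko* and, in double mutants, 97.0, 90.5 and 91.4 TPM. *Ebp* exceeded its highest control value in every mutant library and rose by 0.61 ± 0.10 (adjusted p = 0.00828) in *Chd4-ECko* and by 0.66 ± 0.10 (adjusted p = 0.00276) in *Brg1-ECko*, and its difference of 0.38 ± 0.10 (adjusted p = 0.116) in double mutants did not pass. *Dhcr7*, which makes cholesterol in the last step, had 29.7, 23.2 and 31.5 TPM in control, 50.2, 45.7 and 48.3 TPM in *Chd4-ECko*, 58.7, 46.6 and 48.0 TPM in *Brg1-ECko* and, in double mutants, 46.8, 42.4 and 40.6 TPM. *Dhcr7* exceeded its highest control value in every mutant library and rose by 0.76 ± 0.13 (adjusted p = 0.00816) in *Chd4-ECko* and by 0.84 ± 0.13 (adjusted p = 0.00260) in *Brg1-ECko*, and its difference of 0.61 ± 0.13 (adjusted p = 0.0565) in double mutants did not pass. *Hsd17b7*, a sterol ketoreductase, and *Sc5d*, a sterol desaturase, did not pass in any mutant.

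Among the regulators, both SREBP genes rose in *Chd4-ECko* and *Brg1-ECko*, and *Insig1* did not pass. With each of the 6 libraries left out in turn, *Srebf1* passed again in 6 fits in *Chd4-ECko* and in 0 in *Brg1-ECko*. In the same fits *Srebf2* passed again in 2 in *Chd4-ECko* and in 1 in *Brg1-ECko*. *Srebf1*, the SREBP gene linked mainly to fatty acid synthesis, was measured at 36.0, 32.0 and 34.1 TPM in control, 47.3, 46.2 and 50.2 TPM in *Chd4-ECko*, 43.5, 43.0 and 41.5 TPM in *Brg1-ECko* and, in double mutants, 46.0, 40.6 and 37.4 TPM. *Srebf1* exceeded its highest control value in every mutant library and rose by 0.48 ± 0.092 (adjusted p = 0.0126) in *Chd4-ECko* and by 0.32 ± 0.092 (adjusted p = 0.0452) in *Brg1-ECko*, and its difference of 0.27 ± 0.092 (adjusted p = 0.222) in double mutants did not pass. *Srebf2*, the SREBP gene linked mainly to cholesterol synthesis, stood at 56.4, 46.4 and 52.4 TPM in control, 64.6, 69.0 and 74.8 TPM in *Chd4-ECko*, 68.9, 70.2 and 67.3 TPM in *Brg1-ECko* and, in double mutants, 66.8, 61.7 and 56.5 TPM. *Srebf2* exceeded its highest control value in every mutant library and rose by 0.42 ± 0.10 (adjusted p = 0.0260) in *Chd4-ECko* and by 0.41 ± 0.10 (adjusted p = 0.0200) in *Brg1-ECko*, and its difference of 0.25 ± 0.10 (adjusted p = 0.300) in double mutants did not pass. *Insig1*, the sterol-sensing retention factor of SREBPs, had 76.0, 58.6 and 67.0 TPM in control, 119.8, 98.7 and 66.3 TPM in *Chd4-ECko*, 119, 81.7 and 96.8 TPM in *Brg1-ECko* and, in double mutants, 125, 126 and 89.2 TPM. *Insig1* exceeded its highest control value in 8 of the 9 mutant libraries, with a difference of 0.46 ± 0.22 (adjusted p = 0.161) in *Chd4-ECko*, 0.55 ± 0.22 (adjusted p = 0.129) in *Brg1-ECko* and 0.74 ± 0.22 (adjusted p = 0.155) with both deleted, none past the test. *Insig1* was high in replicates 1 and 2 and low in replicate 3 of *Chd4-ECko*.

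For fatty acids, 1 of 3 synthesis enzymes and all 4 desaturases rose in *Chd4-ECko*. *Fasn*, fatty acid synthase, was measured at 61.3, 48.0 and 55.8 TPM in control, 82.1, 68.9 and 80.6 TPM in *Chd4-ECko*, 88.0, 67.1 and 74.7 TPM in *Brg1-ECko* and, in double mutants, 79.6, 71.2 and 66.0 TPM. *Fasn* exceeded its highest control value in every mutant library and rose by 0.48 ± 0.13 (adjusted p = 0.0410) in *Chd4-ECko* and by 0.47 ± 0.13 (adjusted p = 0.0371) in *Brg1-ECko*, and its difference of 0.39 ± 0.13 (adjusted p = 0.204) in double mutants did not pass. *Acly*, which makes cytosolic acetyl-CoA from citrate, lay above control in every mutant library, with differences of 0.38 ± 0.12 (adjusted p = 0.0597) in *Chd4-ECko*, 0.37 ± 0.12 (adjusted p = 0.0632) in *Brg1-ECko* and 0.39 ± 0.12 (adjusted p = 0.161) with both deleted that did not pass. *Acaca* did not pass either, with 0.30, 0.22 and 0.35. *Scd1*, a stearoyl-CoA desaturase, stood at 62.0, 47.5 and 62.7 TPM in control, 169, 132 and 116 TPM in *Chd4-ECko*, 133, 87.4 and 104 TPM in *Brg1-ECko* and, in double mutants, 159, 131 and 106 TPM. *Scd1* exceeded its highest control value in every mutant library and rose by 1.26 ± 0.20 (adjusted p = 0.00734) in *Chd4-ECko*, by 0.90 ± 0.20 (adjusted p = 0.0149) in *Brg1-ECko* and by 1.18 ± 0.20 (adjusted p = 0.0352) with both deleted. Its rise was the largest of all 31 genes in *Chd4-ECko* and in double mutants. *Scd2*, the stearoyl-CoA desaturase with the highest level of all 31 genes, had 372, 305 and 363 TPM in control, 629, 502 and 448 TPM in *Chd4-ECko*, 558, 407 and 462 TPM in *Brg1-ECko* and, in double mutants, 591, 531 and 470.0 TPM. *Scd2* exceeded its highest control value in every mutant library and rose by 0.59 ± 0.15 (adjusted p = 0.0373) in *Chd4-ECko*, and its difference of 0.45 ± 0.15 (adjusted p = 0.0801) in *Brg1-ECko* and of 0.61 ± 0.15 (adjusted p = 0.0926) in double mutants did not pass. *Scd2* passed in *Chd4-ECko* alone. *Scd2* (chromosome 19, 44281613 to 44295303, GRCm39) and *Scd1* (44382894 to 44399154) are related neighbours, and how the counting split any reads that they share is not given in the sources used here.

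Both desaturases of polyunsaturated fatty acids rose. *Fads1*, a front-end desaturase, was measured at 67.8, 60.4 and 70.0 TPM in control, 112, 98.5 and 101 TPM in *Chd4-ECko*, 129, 95.2 and 97.5 TPM in *Brg1-ECko* and, in double mutants, 104, 97.1 and 83.3 TPM. *Fads1* exceeded its highest control value in every mutant library and rose by 0.64 ± 0.13 (adjusted p = 0.0152) in *Chd4-ECko* and by 0.68 ± 0.13 (adjusted p = 0.00703) in *Brg1-ECko*, and its difference of 0.51 ± 0.13 (adjusted p = 0.0937) in double mutants did not pass. *Fads2*, the desaturase that opens the pathway from the essential fatty acids, stood at 168, 152 and 182 TPM in control, 276, 298 and 301 TPM in *Chd4-ECko*, 299.6, 263 and 268 TPM in *Brg1-ECko* and, in double mutants, 262, 245 and 239 TPM. *Fads2* exceeded its highest control value in every mutant library and rose by 0.80 ± 0.087 (adjusted p = 0.00330) in *Chd4-ECko*, by 0.73 ± 0.087 (adjusted p = 0.00128) in *Brg1-ECko* and by 0.57 ± 0.087 (adjusted p = 0.0291) with both deleted. The elongases *Elovl5* and *Elovl6* did not pass, with differences in *Chd4-ECko* of 0.18 and -0.34. With the study's threshold of a log2 fold change above 1 in size, 1 gene remained per mutant (0.884%, 1.37% and 0.115% of all genes in either direction), *Scd1* in *Chd4-ECko* and double mutants and *Mvk* in *Brg1-ECko*. In all, 18 genes were called in both *Chd4-ECko* and *Brg1-ECko*, and 21 in at least 1 mutant. Such joint counts were not made over all genes, and the comparisons share their control libraries, so the overlap has no background here. In every fit that left out 1 of the 6 libraries, 11 of the 19 calls of *Chd4-ECko* and 12 of the 20 calls of *Brg1-ECko* were made again, *Mvk*, *Fdps* and *Dhcr7* among both.

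**Figure D3:**
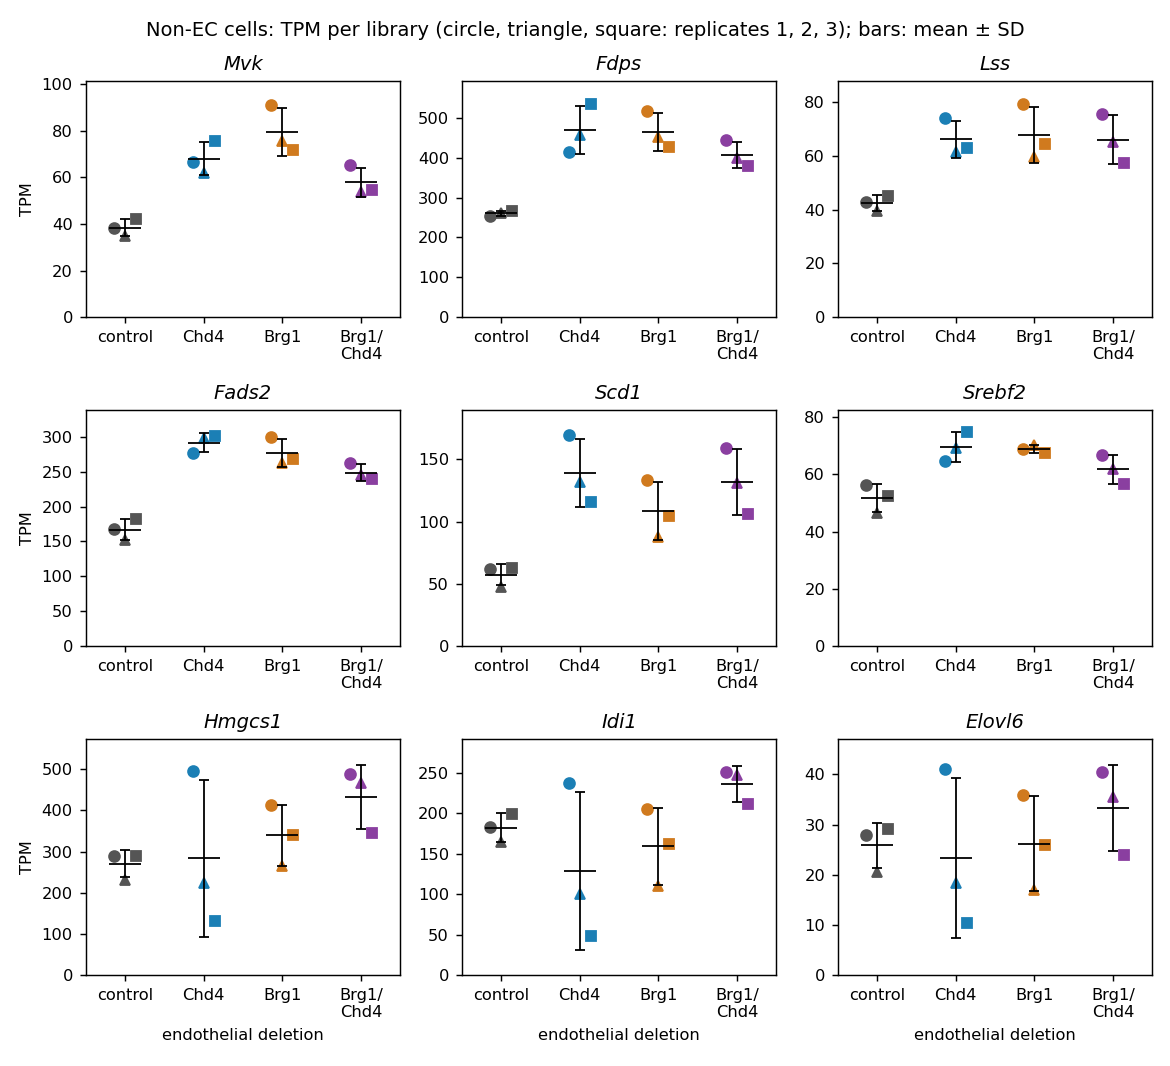
TPM of 9 genes in the 12 non-EC libraries, by genotype, with 1 symbol per replicate and bars for the mean ± SD (n = 3). Mutant libraries lie above control for *Mvk*, *Fdps*, *Lss*, *Fads2*, *Scd1* and *Srebf2*, and overlap with the control range in *Chd4-ECko* and *Brg1-ECko* for *Hmgcs1*, *Idi1* and *Elovl6*.

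The genes without a call differed among themselves in their spread. In control non-EC cells the highest replicate was within 1.5 times of the lowest for all 31 genes. In *Chd4-ECko* it was more than 1.5 times the lowest for 7 genes, *Hmgcs1*, *Idi1*, *Hsd17b7*, *Sc5d*, *Insig1*, *Stard4* and *Elovl6*, which were singled out after their values were seen. *Idi1*, isopentenyl-diphosphate isomerase, was at 183, 164 and 199.7 TPM in control, 237, 99.9 and 48.1 TPM in *Chd4-ECko*, 206, 111 and 162 TPM in *Brg1-ECko* and, for double mutants, 252, 247 and 211 TPM. *Hmgcs1*, which makes the precursor of mevalonate, was at 289, 232 and 289.8 TPM in control, 495, 224 and 131 TPM in *Chd4-ECko*, 412, 265 and 341 TPM in *Brg1-ECko* and, for double mutants, 487, 466 and 345 TPM. For both genes replicate 1 of *Chd4-ECko* lay above and replicate 3 below every control library. *Elovl6*, which elongates palmitate, was at 27.9, 20.7 and 29.0 TPM in control and 41.1, 18.4 and 10.4 TPM in *Chd4-ECko*. *Stard4*, a soluble sterol carrier, was at 70.2, 53.6 and 64.9 TPM in control and 81.5, 46.1 and 29.7 TPM in *Chd4-ECko*. Both again ran from above to below the control range. The ratio of highest to lowest replicate in *Chd4-ECko* was 4.92 for *Idi1*, 3.94 for *Elovl6*, 3.79 for *Hmgcs1*, 2.74 for *Stard4*, 2.20 for *Sc5d*, 2.07 for *Hsd17b7* and 1.81 for *Insig1*. In *Brg1-ECko* 7 genes exceeded 1.5 and in double mutants 2, *Hsd17b7* and *Elovl6*. The share of all genes that exceeded 1.5 was not counted.

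Replicate 1 was the highest of its group for 21 of the 31 genes in *Chd4-ECko* (48.6% of all genes), 26 in *Brg1-ECko* (35.0%) and, for double mutants, 29 (26.6%), and the highest in all 3 mutants for 18. That joint count was not made over all genes. The slope of log2 level on transcript length also differed between the *Chd4-ECko* libraries, at 0.087, -0.14 and -0.22 for replicates 1, 2 and 3, against 0.096, -0.0069 and 0.095 in control. Mitochondrial genes took 7.37%, 3.43% and 2.33% of the TPM of those *Chd4-ECko* libraries. The part of either in the spread of these genes was not tested. After the length trend was removed, an alternative added after seeing the data, 19, 22 and 7 genes were called in the 3 mutants, against 11.8%, 13.5% and 0.694% of all genes.

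**Figure D4:**
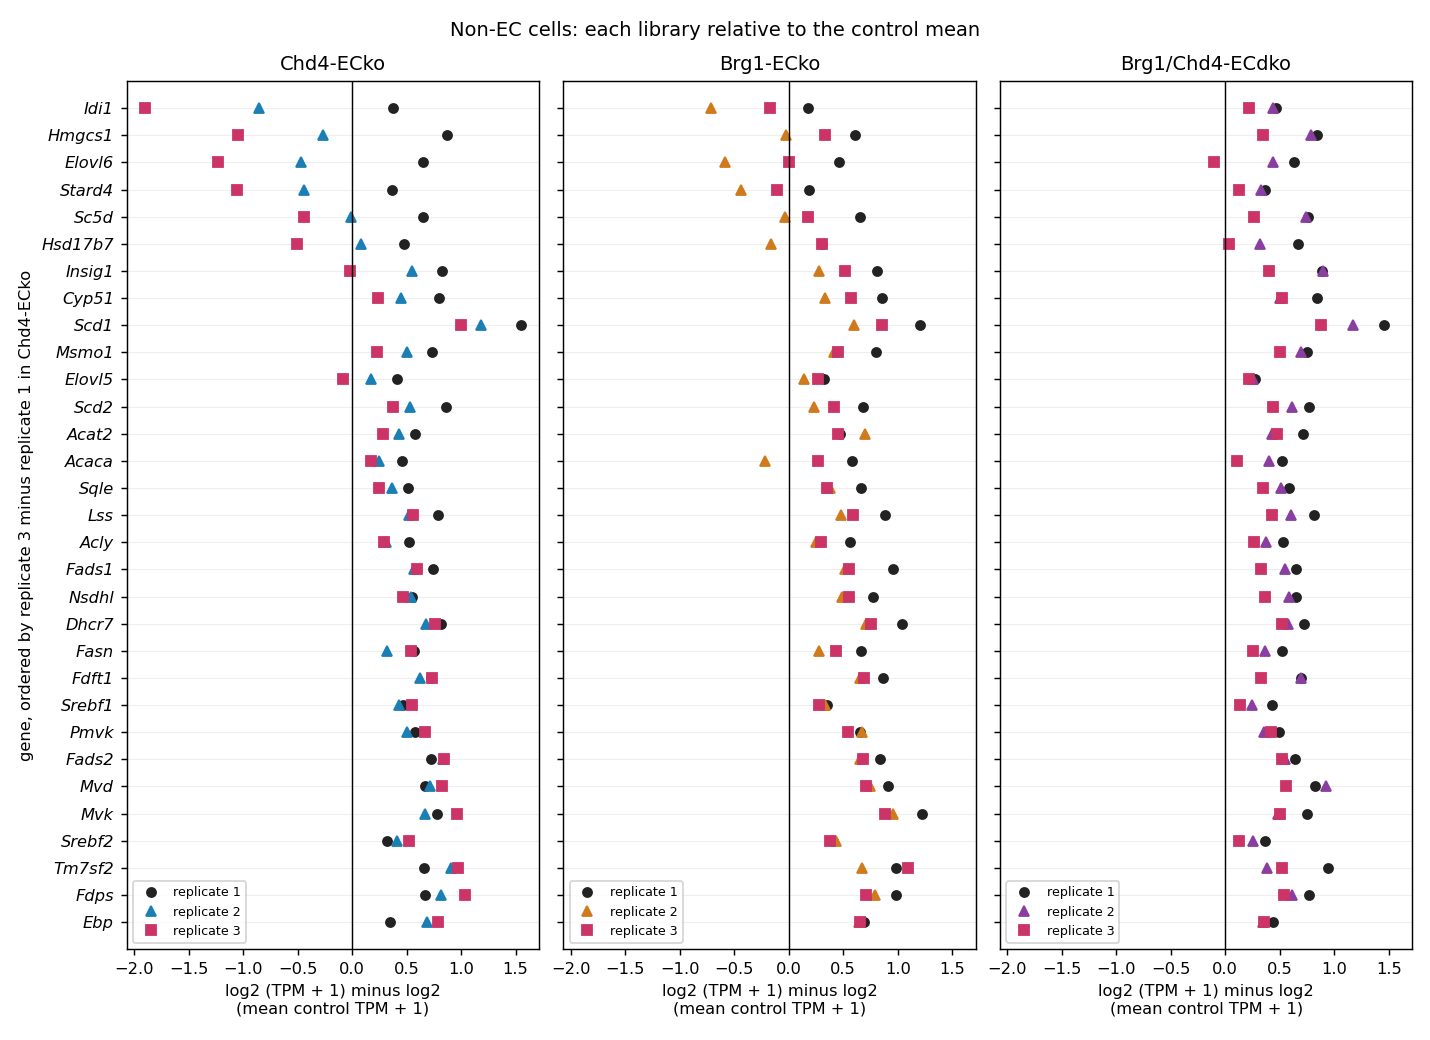
Log2(TPM + 1) of the 31 genes in each mutant non-EC library minus that of the control mean, with genes ordered by replicate 3 minus replicate 1 in *Chd4-ECko*. Circles, triangles and squares are replicates 1, 2 and 3. The replicates of *Chd4-ECko* lie close together for most genes and far apart for *Idi1*, *Elovl6*, *Hmgcs1* and *Stard4*.

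Hepatoblast markers also summed higher in mutant non-EC cells, although 1 of the 10 was negative in *Chd4-ECko* (-0.47). Their 10 genes summed to 17542 to 19624 TPM in control non-EC cells, 26596 to 36062 TPM in *Chd4-ECko*, 26160 to 38054 TPM in *Brg1-ECko* and, for double mutants, 22625 to 30044 TPM, and 7, 9 and 1 of the 10 passed as higher. The 18 sterol enzymes summed to 1454 to 1672 TPM in control, 1911 to 2504 TPM in *Chd4-ECko*, 2079 to 2621 TPM in *Brg1-ECko* and, for double mutants, 2099 to 2584 TPM. The 9 fatty acid enzymes summed to 848 to 1033 TPM, 1342 to 1659 TPM, 1217 to 1598 TPM and 1281 to 1580 TPM in the same order. No mutant library overlapped with control in any of these sums. Per 1000 TPM of hepatoblast markers the sterol enzymes had 80.5 to 90.6 TPM in control, 69.4 to 74.0 TPM in *Chd4-ECko*, 64.1 to 79.5 TPM in *Brg1-ECko* and, for double mutants, 85.8 to 105.0 TPM. On this ratio the sterol enzymes lay below every control library in *Chd4-ECko* and *Brg1-ECko* and overlapped with control in the double mutant. The fatty acid enzymes had 46.9 to 58.0 TPM per 1000 TPM of markers in control and 46.0 to 52.0 TPM in *Chd4-ECko*, which overlapped, 38.9 to 46.5 TPM in *Brg1-ECko*, below control, and 52.4 to 63.1 TPM in double mutants, which overlapped. With the mean log2 level of the markers as a covariate, added after seeing the data, the calls became 11 higher and 6 lower in *Chd4-ECko* (36.8% of all genes called), 6 higher and 6 lower in *Brg1-ECko* (29% of all) and, for double mutants, 0 (0.155% of all). The 6 lower were in both *Hsd17b7*, *Elovl6*, *Sc5d*, *Idi1*, *Hmgcs1* and *Stard4*. The covariate moves with the genotype, so the share of hepatoblast RNA and a change within hepatoblasts cannot be told apart here. Of the other marker lists in non-EC cells, 1 of 9 erythroid markers passed as lower in *Brg1-ECko*, where all 9 were negative with a median of -0.93. In double mutants 8 of the 9 were negative (median -0.42) and in *Chd4-ECko* 4 (median 0.01), none past the test. All 6 megakaryocyte markers were negative in *Chd4-ECko* (median -0.26) and in double mutants (-0.44), and 5 in *Brg1-ECko* (-0.05), again without passing. In *Chd4-ECko* 3 of 3 embryonic globins and, of 6 mesenchymal markers, *Dcn* (0.64) rose. The 6 mesenchymal markers were all positive in every mutant, with medians of 0.75 (*Chd4-ECko*), 0.41 (*Brg1-ECko*) and 0.28 (double mutants). None of them passed outside *Chd4-ECko*. The 3 globins were also positive in double mutants (median 1.88), each at an unadjusted p under 0.05, but none passed. For *Brg1-ECko* 2 of the 3 globins were positive (median 0.10), again without passing. The part of these lists in the result was not tested.

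**Figure D5:**
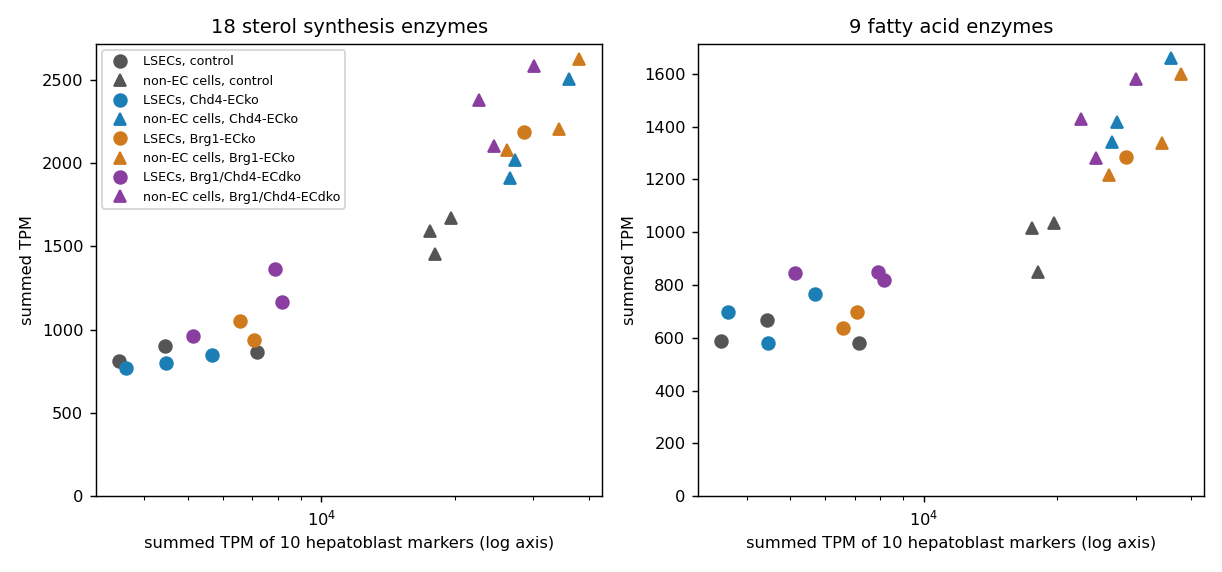
Summed TPM of the 18 sterol enzymes (left) and 9 fatty acid enzymes (right) against the summed TPM of 10 hepatoblast markers on a log axis, with 1 point per library. The mutant non-EC libraries (triangles) lie above and to the right of control, and *Brg1-ECko* LSEC replicate 1, at 28591 TPM of markers, is the only LSEC library (circles) in their range.

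Other genes of these pathways were counted from lists of the same kind. Of all genes 6.17% rose in *Chd4-ECko* non-EC cells, 8.91% in *Brg1-ECko* and 0.565% in double mutants. Of 9 further genes of sterol synthesis, handling and regulation, 4 rose in *Chd4-ECko* non-EC cells and 5 in *Brg1-ECko*, and none in double mutants. *Scap*, the SREBP escort (0.42 and 0.39 in *Chd4-ECko* and *Brg1-ECko*), *Npc1* (0.68 and 0.71) and *Npc2* (0.48 and 0.41), which release cholesterol from lysosomes, and *Soat2*, which esterifies it (0.71 and 0.87), rose in both. *Mbtps1*, a protease that cleaves SREBPs, rose by 0.32 in *Brg1-ECko* and did not pass in *Chd4-ECko*. Of 5 sterol export genes tested, *Nr1h3*, an oxysterol receptor, rose in *Brg1-ECko* (1.18) and 0 in *Chd4-ECko*. Of 13 further fatty acid genes tested, *Me1*, which supplies NADPH (0.78 and 0.80), *Slc25a1*, the citrate carrier (0.58 and 0.43), and *Tecr*, of the elongation cycle (0.52 and 0.52), rose in both.

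Of 10 genes that use fatty acids for glycerolipids, *Agpat2* (0.69 and 0.65) and *Dgat2* (0.85 and 0.97) rose in both. Of 10 genes of fatty acid oxidation, *Cpt2* rose in both (0.43 and 0.60), and *Acadvl* (0.60) and *Hadha* (0.35) rose in *Brg1-ECko*. With 6.17% of all genes higher in *Chd4-ECko* and 8.91% in *Brg1-ECko*, 1 call among 10 genes is near that share. No gene of these lists passed in double mutant non-EC cells or in LSECs of any mutant. Between the control fractions *Acss2* (-2.72), *Mlxipl* (-2.17), *Soat2* (-1.87) and *Acsl1* (-1.86) were lower in LSECs.

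The comparison of double mutants with *Chd4-ECko* shows what the added loss of *Brg1* went with in non-EC cells. Between double mutants and *Chd4-ECko* 0 of the 31 genes passed, and 0 of 12223 genes in all (0%). At an unadjusted p under 0.05, 5 of the 31 and 2668 of all genes (21.8%) passed. These 5 were *Idi1* (1.16) and *Stard4* (0.64), higher in the double mutant, and *Fads2* (-0.23), *Srebf1* (-0.21) and *Ebp* (-0.23), lower. For 3 genes, *Fads2*, *Srebf1* and *Pmvk*, every double mutant library lay below every *Chd4-ECko* library (7.12% of all genes). Without *Chd4-ECko* replicate 1, 7 genes passed, 5 higher and 2 lower in the double mutant, where 32.4% of all genes passed.

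In LSECs no gene of the 31 passed in any mutant. In *Chd4-ECko* LSECs 0.707% of 13444 genes passed, and the median log2 difference was 0.00 over the 31 genes and 0.01 over all. At an unadjusted p under 0.05 only *Acat2* differed (6.49% of all genes). Of the marker lists in these LSECs, 4 of 10 myeloid markers and 3 of 3 embryonic globins passed as higher. All 10 myeloid markers were positive, with a median of 1.11, and each had an unadjusted p under 0.05. The part of these lists in the values was not tested. *Acat2* had 70.7, 56.5 and 73.2 TPM in control and 56.4, 50.0 and 44.4 TPM in *Chd4-ECko* LSECs, a log2 difference of -0.40 ± 0.13 (unadjusted p = 0.00914, adjusted p = 0.326), and the groups did not overlap. *Acly* had 103, 97.2 and 104 TPM in control and 124, 119 and 147 TPM in *Chd4-ECko* LSECs, a difference of 0.35 ± 0.17 (unadjusted p = 0.0559, adjusted p = 0.798). *Srebf1* had 16.1, 15.8 and 12.0 TPM in control and 23.3, 17.3 and 19.6 TPM in *Chd4-ECko* LSECs, a difference of 0.43 ± 0.22 (unadjusted p = 0.0698, adjusted p = 0.870). *Acly* and *Srebf1* were thus higher in each *Chd4-ECko* LSEC library than in any control, as was *Scd1*, without passing the test. In the other direction *Idi1* and *Hsd17b7*, like *Acat2*, were lower in each *Chd4-ECko* LSEC library than in any control, also without passing. An exact permutation test of 3 libraries against 3 cannot give a two-sided p below 0.10.

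In *Brg1-ECko* LSECs 3 genes of 13444 passed (0.0223%), none of them among the 31, while 16 of the 31 had an unadjusted p under 0.05, all higher (7.13% of all genes were). The median log2 difference was 0.52, against 0.08 over all genes. All 10 endothelial markers were negative here (median -0.46), 6 of them at an unadjusted p under 0.05. All 10 myeloid markers were positive (median 0.59), 5 of them at that level. The part of both lists in the values was not tested. All 10 hepatoblast markers were higher as well at an unadjusted p under 0.05, with a median of 1.18. With their mean as a covariate the median of the 31 genes was 0.017, against 0.091 over all genes, and 18 of the 31 differences were positive in place of 31. Without the covariate 65.2% of all genes were positive. Replicate 1 was the highest of the group for all 31 genes, where 44.9% of all genes had it highest, and 2.14 times (median) the mean of replicates 2 and 3. Without it the median was 0.17, against 0.06 over all genes, and 0 of the 31 passed. *Elovl6* had 17.5, 14.6 and 16.1 TPM in control and 42.2, 21.4 and 21.6 TPM in *Brg1-ECko* LSECs, a difference of 0.72 ± 0.22 (unadjusted p = 0.00575, adjusted p = 0.348). *Tm7sf2* had 5.10, 4.91 and 5.25 TPM in control and 22.6, 8.02 and 6.13 TPM in *Brg1-ECko* LSECs, a difference of 0.92 ± 0.33 (unadjusted p = 0.0142, adjusted p = 0.426). *Acly* had 193, 118 and 118 TPM in *Brg1-ECko* LSECs, a difference of 0.45 ± 0.17 (unadjusted p = 0.0174, adjusted p = 0.426). In these 3 genes replicates 2 and 3 also exceeded the highest control, which was so for 11 genes (10.9% of all genes had groups that did not overlap), but by far less than replicate 1.

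In double mutant LSECs 0.87% of all genes passed and none of the 31, of which 6 had an unadjusted p under 0.05 (12.1% of all genes). The median log2 difference was 0.41, against 0.16 over all genes. Quantile normalization brought these medians to 0.26 and -0.0035. All libraries lay above control for 22 of the 31 genes (20.8% of all genes). *Acly* had 145, 147 and 154 TPM, a difference of 0.55 ± 0.17 (unadjusted p = 0.00567, adjusted p = 0.185). *Elovl6* had 23.2, 24.8 and 25.6 TPM, a difference of 0.58 ± 0.22 (unadjusted p = 0.0188, adjusted p = 0.305). *Scd1* had 17.9, 14.9 and 14.4 TPM in control and 38.6, 39.6 and 25.5 TPM in double mutant LSECs, a difference of 1.07 ± 0.43 (unadjusted p = 0.0259, adjusted p = 0.341). All of these libraries exceeded the control range given above. Hepatoblast markers summed to 5130 to 8151 TPM in these LSECs and 3504 to 7154 TPM in control. All 10 markers were positive, with a median of 0.42. With their mean as a covariate the median of the 31 genes was 0.19, against 0.15 over all genes, with 30 of the 31 positive as before. Without the covariate 76.7% of all genes were positive. Of the other marker lists in these LSECs, 3 of 3 embryonic globins passed as higher, with a median of 3.11. Myeloid markers were positive in 10 of 10 cases (median 0.80), 7 of them at an unadjusted p under 0.05. Of 10 endothelial markers 8 were negative (median -0.20), 2 of them at that level. The part of these lists in the values was not tested. Against *Chd4-ECko* LSECs, 0 of the 31 passed (0.0372% of all genes), 8 had an unadjusted p under 0.05 (10.4%), and 18 had groups that did not overlap, all higher in the double mutant (13.6%). The median was 0.41, against 0.13 over all genes, and all 10 hepatoblast markers were positive here too, with a median of 0.51. With the covariate the median of the 31 genes was 0.14, against 0.13 over all genes, 23 of the 31 were positive, and *Acat2* alone passed (0.70, adjusted p = 0.0463, where 0.379% of all genes passed). Without the covariate 30 of the 31 and 73.2% of all genes were positive.

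Whether a mutant's effect differed between LSECs and non-EC cells was tested by an interaction in a model of all 24 libraries. For *Chd4-ECko* 2 of the 31 genes passed, both with a lower effect in LSECs (0 in 5 of the 12 fits that left out a single library), where 1.02% of all 13775 genes passed in either direction. *Acat2* was higher than control in every *Chd4-ECko* non-EC library. In LSECs every *Chd4-ECko* library lay below control, but barely (highest 56.42 TPM against a lowest control of 56.47 TPM), and that difference did not pass. The effects on *Acat2* differed by -0.84 ± 0.18 (adjusted p = 0.0251). *Mvk* had 35.1, 37.5 and 35.7 TPM in control and 27.9, 34.1 and 36.6 TPM in *Chd4-ECko* LSECs, which overlapped, while its non-EC libraries lay above control, and its effects differed by -0.95 ± 0.23 (adjusted p = 0.0460). The median difference of effects was -0.50 over the 31 genes and 0.03 over all. For *Brg1-ECko* 0 of the 31 passed (1.04% of all genes) and for double mutants 0 (0.0581%), with 2 (17.9% of all genes) and 1 (7.57%) at an unadjusted p under 0.05. Hence, for the other genes that rose in non-EC cells and not in LSECs, a difference between the fractions was not shown.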

How the data were processed

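RNA of 24 libraries was used, 12 each of LSECs and non-EC cells from E12.5 livers, 3 per genotype. Per the labels and the study's methods, the authors mapped guanine-trimmed reads to GRCm39 with CLC Genomics Workbench, and the values they deposited are TPM of each gene. Each library sums to the same total of 1000000 TPM, so the depth is unknown and no counting interval could be given. The 8 deposited group-mean columns equalled the means of their replicates and were not used. Columns outside the design numbered 0. Replicates of a group correlated at 0.981 to 0.996 on the log2 scale, and 0 pairs of libraries were identical. The labels give replicate numbers only, and the study's figure legends describe the replicates as separate embryos. How they were taken is not said further, so p-values measure the spread between these libraries.

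The log2 of TPM + 1, a scale that understates the change of low genes, was compared with limma 3.58.1 (R 4.3.3). A gene had to reach 1 TPM in 3 libraries or more. Each fraction had its own model of 12 libraries (13444 genes in LSECs, 12223 in non-EC cells), and the fractions and interactions came from a model of all 24 (13775 genes), with variances moderated with a trend. P-values are two-sided and adjusted over all genes of a model by the Benjamini-Hochberg method, and a call is an adjusted p under 0.05. The steps were tested on simulated data. Tables and figures were made in Python 3.11.15 with pandas 2.3.3 and matplotlib 3.10.9.

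The 31 genes, the pathway and marker lists and the naming rule were chosen with earlier results of these data known. By that rule, library values were given for genes that passed in a mutant, for *Srebf1*, *Srebf2* and *Insig1*, for the 3 smallest p per LSEC comparison and for the 8 largest differences between control fractions. Genes of the other pathway lists were named where they passed in a mutant or were among the 5 largest differences between control fractions. Some genes of these lists are not reported here and were left out of the counts.

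LSEC and non-EC libraries of the same genotype and number deviated together in all 12 pairs (mean correlation of deviations 0.303, lowest 0.141), so they were taken as pairs from 1 embryo, a pairing that comes from the replicate numbers. The main fits did not use this pairing. It entered only as a block in an alternative fit of the interaction tests, and the comparison of control fractions was not refitted with it. Alternatives were a pseudocount of 0.1 TPM, no filter, a filter at a mean of 5 TPM, normalization by quantiles, TPM without mitochondrial or globin genes, no trend, the replicate block, the study's fold threshold, leaving out each library and a model of only the groups compared. Removing the length trend and the hepatoblast covariate were added after seeing the data.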

Additional observations from a re-analysis of the deposited data

Results flagged for a closer look

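*Acat2* and *Mvk* had *Chd4-ECko* effects that differed between LSECs and non-EC cells by an interaction test in limma. For *Acat2* the log2 effect in LSECs minus that in non-EC cells was -0.84 (adjusted p = 0.0251), and for *Mvk* it was -0.95 (adjusted p = 0.0460). *Acat2* was higher than control in all 3 *Chd4-ECko* non-EC libraries. In LSECs all 3 lay below control, but the highest, at 56.42 TPM, nearly met the lowest control at 56.47 TPM. That LSEC difference did not pass by itself. *Mvk* overlapped with control in LSECs and was higher in all 3 non-EC libraries. With each of the 12 libraries left out in turn, *Acat2* passed in 6 fits (-0.95 to -0.75, adjusted p from 0.00868 to 0.0700) and *Mvk* in 2 (-1.03 to -0.84, adjusted p from 0.0121 to 0.134). Neither gene passed without LSEC control replicate 1 or 3, non-EC control replicate 1, or *Chd4-ECko* replicate 2 of either fraction.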

How the results depend on the processing

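In the mutant non-EC comparisons with control, no gene of the 31 was called lower under any alternative run except 2. Without *Chd4-ECko* replicate 1, *Idi1* (-1.37, adjusted p = 0.00466) and *Stard4* (-0.74, adjusted p = 0.0183) were called lower in *Chd4-ECko*. The hepatoblast covariate gave 6 lower calls in each single mutant (*Idi1*, *Elovl6*, *Stard4*, *Hmgcs1*, *Hsd17b7* and *Sc5d* in both), with 12 calls in all in *Brg1-ECko* (*Cyp51* at -0.20), 0 in *Brg1/Chd4-ECdko*, 7 for *Brg1/Chd4-ECdko* against *Chd4-ECko* in non-EC cells and 1 in LSECs. The study's threshold left 1 call in each mutant, 12 between control fractions and 0 interactions of *Chd4-ECko*. Models of the compared groups alone gave 7 calls in *Chd4-ECko* non-EC cells, 4 in *Brg1/Chd4-ECdko* LSECs and 1 for the latter against *Chd4-ECko* LSECs. For *Brg1/Chd4-ECdko* non-EC cells, no filter, no trend and TPM without mitochondrial or without mitochondrial and globin genes each gave 3 calls, and the same 4 settings each gave 1 interaction of *Chd4-ECko*. Leaving out 1 library gave 11 (without control replicate 2) to 22 calls in *Chd4-ECko* non-EC cells, 12 (without control replicate 2) to 18 in *Brg1-ECko*, with 13 without its replicate 1, 0 to 1 in *Brg1/Chd4-ECdko*, 0 to 7 (without *Chd4-ECko* replicate 1) for the latter against *Chd4-ECko*, 21 to 26 between control fractions and 0 to 2 interactions of *Chd4-ECko*. The cause of these changes was not tested.

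The labels do not say whether same-numbered libraries of different genotypes share a litter or day. Their deviations correlated above 0.1 in 13 of 18 pairs in LSECs (mean 0.17, against -0.085 for different numbers) and 10 of 18 in non-EC cells (0.13 and -0.067), and 10 of 12 LSEC and 6 of 12 non-EC libraries correlated best with their own number, a hint of a shared factor. As not every pair did, the block was kept as an alternative. With the replicate block non-EC cells had 14 calls in *Brg1/Chd4-ECdko* (2.46% of all genes) and 22 in *Chd4-ECko* (11.8%) and *Brg1-ECko* (13.1%), with 28 between control fractions (69.1%), so genes of *Brg1/Chd4-ECdko* that did not pass without the block may pass with it. The block of LSEC and non-EC libraries by embryo changed no call among the 31 genes in the interaction tests. Quantile normalization moved the median of all genes from 0.16 to -0.0035 in *Brg1/Chd4-ECdko* LSECs. Of 1363 alternatives for 81 single results, 1137 kept direction and call, 222 kept the direction and lost the call, 3 gained it and 1 reversed. With unknown depth and 3 libraries a group, small differences in LSECs may have been missed.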
